A study of Homo sapiens with 72 samples.

Results

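DKK1, EHF, FLG and MUC7 are 4 of the 44659 gene names in a count table of 72 libraries from A375 cells, an established human melanoma line. They were selected on measured values, as the strongest rises in cells depleted of CTU2, so the rise itself is given as a description. Their order follows the fold changes of the T arm at 0 h, although the selection names no arm. CTU2 encodes a subunit of the enzyme that thiolates the wobble uridine of several tRNAs. Cytoplasmic RNA was profiled with QuantSeq, which reads the 3′ end of polyadenylated RNA.

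The 24 groups held 3 libraries each. Cells had been transfected for 42 h with a pool of 2 siRNAs against CTU2 (siCTU2) or with siGL2, a control siRNA, or had been kept for 18 h in medium lacking glutamine (mQ) or containing it (pQ). All cells then received triptolide (25 µM), which blocks transcription, either alone (T arm) or together with the translation inhibitor cycloheximide (100 µg/ml, TCHX arm), and were harvested at 0, 3 or 5 h. At 0 h both arms were harvested as treatment began. No group was free of triptolide, and the siCTU2 groups rest on 1 cell line and 1 pool of siRNAs.

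DKK1 is a secreted antagonist that binds the LRP co-receptors and thereby dampens canonical Wnt signalling. EHF is an ETS-family transcription factor found mainly in epithelia. FLG encodes profilaggrin, the precursor of filaggrin, which bundles keratin filaments in the cornified layer of the epidermis. MUC7 encodes a small secreted mucin of saliva. None of these genes is a melanocyte lineage marker.

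The siRNAs are shown because the siCTU2 state is defined by them. Both sequences against CTU2 matched its coding exons on the plus strand of GRCh38, siCTU2#1 in exon 8 (chr16:88713389-88713407) and siCTU2#2 in exon 13 (chr16:88714907-88714925) of 15, while siGL2 was not found in the CTU2 transcript.
siCTU2#1: cuaucaagcucaugaccaa
siCTU2#2: gcgugaacaugaaggacuu
siGL2: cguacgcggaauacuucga

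Libraries held 5987692 to 15534331 counts, and levels are given as CPM, counts of a gene per 1e6 counts of its library. CTU2 ranged from 0.133 to 2.95 CPM in 17 siCTU2 libraries and from 13.01 to 38.7 CPM in the 54 libraries of the other states. Against its label, CTU2 stood at 10.4 CPM (117 counts) in the library called siCTU2 TCHX 5 h replicate 3. It is also one of 3 libraries (with mQ T 5 h replicate 3 and pQ TCHX 0 h replicate 3) in which 19896 to 20364 genes had counts, against 15507 to 17495 in the other 69. Among the 0 h libraries, 7 of 10 melanoma and neural crest markers had a mean of at least 1 CPM in every state, and their sum spanned 764 to 1160 CPM. Of 10 keratinocyte markers, KRT10 alone reached that mean in siCTU2 cells, and KRT5 and IVL were at 0 in every state. Of 8 salivary and airway secretory markers, MUC5B alone reached it in siCTU2 cells, and SLPI and STATH were at 0 in every state. The summed keratinocyte markers spanned 204 to 297 CPM in siCTU2 and 178 to 227 CPM in siGL2 libraries, and the secretory markers 2.86 to 5.16 and 5.94 to 10.2 CPM. Their part in the results was not tested. In bulk RNA, more cells expressing a gene and more RNA per cell cannot be told apart.

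The start regions of the 4 genes were compared, since shared promoter letters are a feature the selection did not use. RefSeq lists 1 promoter for DKK1, 2 for EHF, 1 for FLG and 3 for MUC7 (GRCh38.p14, 250 bases before to 50 after each start, on the strand of the gene). The first promoter of each gene is shown, and capitals mark TATAAA, the letters of a TATA box, which were searched on the strand of the gene only.
DKK1 (chr10:52314031-52314330, plus strand): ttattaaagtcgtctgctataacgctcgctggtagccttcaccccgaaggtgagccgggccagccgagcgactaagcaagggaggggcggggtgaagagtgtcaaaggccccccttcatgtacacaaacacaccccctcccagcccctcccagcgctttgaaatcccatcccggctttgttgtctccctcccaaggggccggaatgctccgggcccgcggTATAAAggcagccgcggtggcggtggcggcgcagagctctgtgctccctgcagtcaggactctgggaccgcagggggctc
EHF (chr11:34624007-34624306, plus strand): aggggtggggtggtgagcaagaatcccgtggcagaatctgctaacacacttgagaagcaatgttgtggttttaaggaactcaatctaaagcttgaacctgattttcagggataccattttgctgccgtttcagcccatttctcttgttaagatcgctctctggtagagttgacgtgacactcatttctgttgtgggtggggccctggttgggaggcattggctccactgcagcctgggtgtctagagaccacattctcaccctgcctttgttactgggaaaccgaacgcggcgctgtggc
FLG (chr1:152325190-152325489, minus strand): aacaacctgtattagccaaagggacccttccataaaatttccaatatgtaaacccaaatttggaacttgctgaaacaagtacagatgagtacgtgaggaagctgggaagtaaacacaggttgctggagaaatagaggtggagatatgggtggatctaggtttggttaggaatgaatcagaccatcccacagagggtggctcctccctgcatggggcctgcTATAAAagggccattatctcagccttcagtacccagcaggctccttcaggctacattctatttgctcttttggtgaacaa
MUC7 (chr4:70430242-70430541, plus strand): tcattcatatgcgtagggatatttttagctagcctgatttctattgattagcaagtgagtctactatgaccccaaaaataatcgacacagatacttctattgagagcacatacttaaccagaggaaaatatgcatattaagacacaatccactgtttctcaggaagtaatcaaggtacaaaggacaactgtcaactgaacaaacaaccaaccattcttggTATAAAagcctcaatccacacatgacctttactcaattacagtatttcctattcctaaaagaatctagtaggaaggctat

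The TATAAA run began at position -30 from the start in DKK1, FLG and the first MUC7 promoter, and at -29 in the third MUC7 promoter, and neither EHF promoter held it. Among 35116 promoters of this length, 7.33% held these letters. On either strand, CTTTGAA, a TCF/LEF motif, was in the DKK1 promoter (4.43% of all promoters), and TGANTCA, an AP-1 motif, was in the FLG promoter (7.71%). GGAATG, a TEAD motif, was in those of DKK1 and FLG (14.03%). GGAAGT, an ETS motif, was in those of FLG and MUC7 (22.8%). In FLG the matches to GGAATG (position -83) and TGANTCA (-79) overlapped. These are matches of letters, not sites of binding. The GC content of the DKK1 promoter was 63.7%, and those of the first EHF, FLG and MUC7 promoters were 51.3%, 45.7% and 36%, beside a median of 58.7% over all promoters.

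In the libraries whose fold changes gave the order (T arm, 0 h), DKK1 had 62.5, 78.5 and 49.1 CPM in siCTU2 cells and 1.27, 1.58 and 0.988 CPM in siGL2 cells (replicates 1 to 3). EHF had 13.4, 13.6 and 7.62 CPM in siCTU2 cells against 0.347, 0.678 and 0.617 CPM. FLG had 7.69, 13.9 and 7.15 CPM against 0.462, 0.791 and 0.494 CPM. Every siCTU2 library lay above every siGL2 library for these genes, and the same held for MUC7, with 14.8, 14.3 and 11.7 CPM against 1.16, 0.678 and 1.36 CPM. The edgeR log2 fold changes were 5.60, 4.36, 4.00 and 3.66 for DKK1, EHF, FLG and MUC7. In this contrast 17.8% of 12292 genes were called higher, and the share whose libraries did not overlap was not counted. C9orf135 (4.15) lay between EHF and FLG in the order of rises and is not described here. MUC7 was the last gene inside the selection, and DACT1 and LHX4, both at 3.55, were the next outside it.

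**Figure D1:**
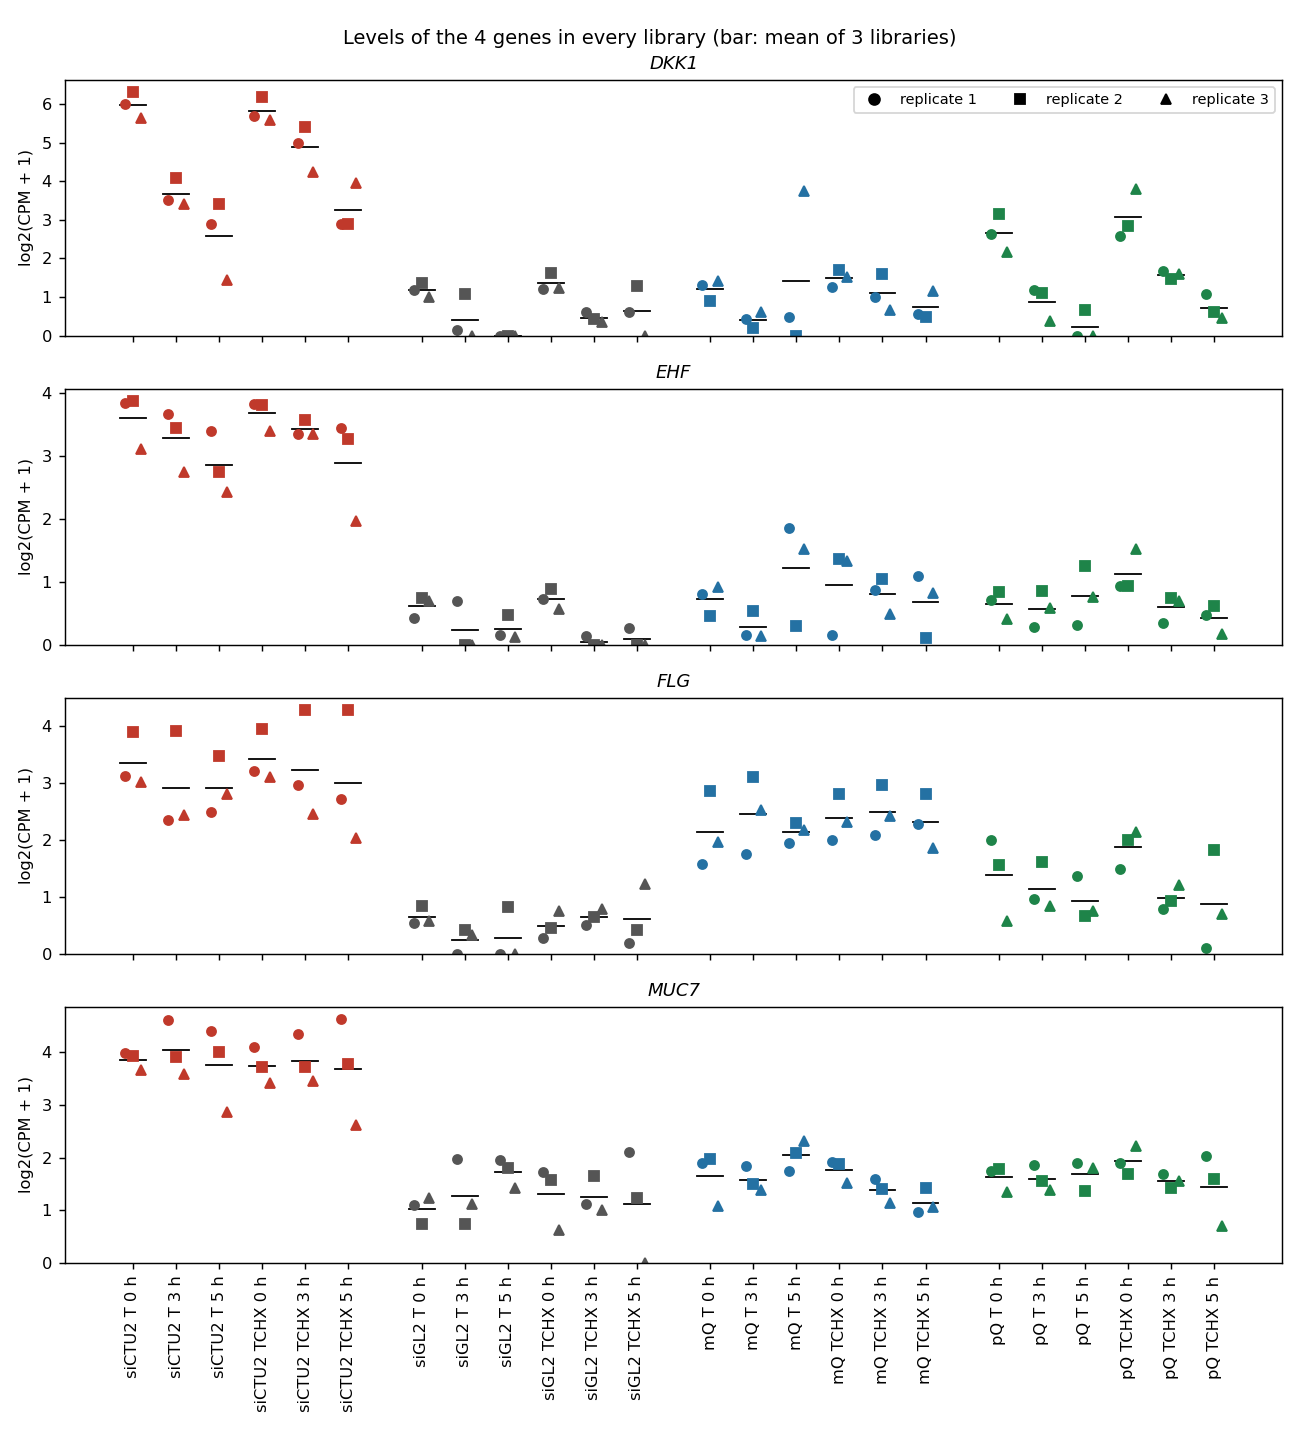
Level of each gene, as log2(CPM + 1), in all 72 libraries by state, arm and hours after triptolide, with 1 marker per library and a bar at the mean of 3. The siCTU2 libraries of EHF and MUC7 lie above all others, whereas DKK1 falls with time. The FLG means of both mQ and pQ cells lie above those of siGL2 cells.

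Over all times and both arms, the 18 siCTU2 libraries of EHF (2.93 CPM or more) and of MUC7 (5.15 CPM or more) did not overlap with any of the 54 other libraries, whose highest values were 2.62 and 3.96 CPM. The share of all genes that separate in this way was not counted. The siCTU2 libraries here include those whose fold changes gave the order of the genes. For DKK1, 14 of the 54 other libraries reached the lowest siCTU2 value of 1.74 CPM, 9 of them pQ, 4 mQ and 1 siGL2. For FLG, 13 reached the lowest siCTU2 value of 3.11 CPM, 12 of them mQ and 1 pQ. The order of group means thus differed by gene. The siCTU2 groups took the first 5 places for DKK1, followed by pQ TCHX 0 h (7.97 CPM ± 4.25, SD, n = 3) and siCTU2 T 5 h (5.90 ± 3.95), which overlapped. For FLG all 6 siCTU2 means (6.92 to 10.2 CPM) were followed by all 6 mQ means (3.44 to 4.93), then by the 6 pQ means (0.962 to 2.75) and the 6 siGL2 means (0.199 to 0.602), and each group overlapped with its neighbour in this order. For EHF and MUC7 the last siCTU2 group did not overlap with the next group, while every later group overlapped with its neighbour.

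In the siCTU2 groups replicate 3 was the lowest in 5 of 6 for DKK1, 5 for EHF, 4 for FLG and 6 for MUC7. The highest replicate differed by gene. FLG was highest in replicate 2 in all 6 siCTU2 groups and all 6 mQ groups, whereas MUC7 was highest in replicate 1 in all 6 siCTU2 groups, EHF in replicate 1 in 4 of 6 and DKK1 in replicate 2 in 5 of 6.

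The siRNA contrast was then examined in the TCHX arm at 0 h. These are separate libraries of the same states and time, and nothing in the labels says that they came from other cultures. Same-numbered siCTU2 libraries of both arms were close for some genes (14.6 and 13.9 CPM of FLG in replicate 2), so the p-values of this contrast, here and at later times, are no independent evidence of the rise that chose the genes. DKK1 had 50.8, 72.1 and 46.7 CPM in siCTU2 cells and 1.32, 2.07 and 1.36 CPM in siGL2 cells, which differed by 5.17 on the log2 scale (SE 0.22, edgeR adjusted p = 1.32e-12). EHF had 13.2, 12.996 and 9.54 CPM against 0.660, 0.847 and 0.475 CPM (4.20, SE 0.33, edgeR adjusted p = 6.35e-09). FLG had 8.31, 14.6 and 7.61 CPM against 0.220, 0.376 and 0.679 CPM (4.45, SE 0.41, edgeR adjusted p = 6.78e-08). In each case the groups did not overlap, which the selection of strong rises favours, and the share of all genes that separate so was not counted. MUC7, with 16.1, 12.1 and 9.64 CPM against 2.31, 1.98 and 0.543 CPM, did not overlap either and had the smallest difference of the 4 genes (3.06, SE 0.36, edgeR adjusted p = 1.49e-06). All 4 were called higher, where 18.3% of 12507 genes were. As ratios of mean CPM, siCTU2 cells had 35.7 times the siGL2 level of DKK1, 18.0 times that of EHF, 23.9 times that of FLG and 7.84 times that of MUC7.

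After the transcription block the contrast remained. Here differences are relative to library totals. At 3 h in the T arm all 4 genes were called higher (15.9% of 12248 genes were), with log2 fold changes of 4.79 (SE 0.56) for DKK1, 5.24 (SE 0.64) for EHF, 5.20 (SE 0.73) for FLG and 3.30 (SE 0.41) for MUC7, and edgeR adjusted p-values of 7.36e-06, 1.13e-05, 4.45e-05 and 1.21e-05. The siGL2 libraries held 1, 10 and 0 counts of DKK1 and 6, 0 and 0 of EHF, and the values rose to 7.43 without siGL2 replicate 2 for DKK1 and to 9.58 without siGL2 replicate 1 for EHF. At 3 h in the TCHX arm all 4 were again called higher (17.9% of 12489), with values of 6.23 (SE 0.39), 7.91 (SE 0.55), 4.06 (SE 0.55) and 3.16 (SE 0.34) in the same order and edgeR adjusted p-values of 3.75e-08, 1.01e-07, 5.09e-05 and 5.73e-06. The EHF value at TCHX 3 h rests on 1, 0 and 0 counts in the siGL2 libraries. As a ratio of summed counts per depth it was 341, with a 95% counting interval (exact binomial) of 60.9 to 13500, which covers counting error only.

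At 5 h in the T arm DKK1 had 6.36, 9.60 and 1.74 CPM in siCTU2 cells, and no count in any siGL2 library. Its level was at least 20.0-fold higher, computed against a floor of 3 counts per library (edgeR adjusted p = 0.0172). EHF, FLG and MUC7 differed by 4.94 (SE 0.64), 4.64 (SE 1.00) and 2.52 (SE 0.46) with edgeR adjusted p-values of 0.00432, 0.0323 and 0.0185, and 2.81% of 11771 genes were called higher. Same-numbered libraries deviated together here (r = 0.73, 0.733 and 0.899), and these p-values come from the fit without the replicate number. Over 11 alternatives the number of genes called higher ranged from 65 to 2099, so this share depends on the setting. The calls of DKK1 and MUC7 were lost without siCTU2 replicate 1 or 2 or siGL2 replicate 1 or 2 (adjusted p = 0.0513 to 0.0812), and that of FLG without siCTU2 replicate 1 or 2 or siGL2 replicate 1 (adjusted p = 0.0809 to 0.138) and when tested against a 1.5-fold change (adjusted p = 0.0574). FLG had 0, 8 and 0 counts in siGL2 cells, and without replicate 2 of these its value rose to 9.13. At 5 h in the TCHX arm, which includes the library whose CTU2 level went against its label, EHF was called higher (6.02, SE 0.91, edgeR adjusted p = 0.0296), where 1.08% of 12343 genes were. EHF had 9.94, 8.59 and 2.93 CPM in siCTU2 cells against 0.204, 0 and 0 CPM (3, 0 and 0 counts), a ratio of 69.8 (95% counting interval 23.6 to 341), and its call was lost without siCTU2 replicate 1 or 2 or siGL2 replicate 1 or 2 (adjusted p = 0.102 to 0.167). DKK1, FLG and MUC7 had values of 3.63 (SE 0.78), 4.09 (SE 0.98) and 2.97 (SE 0.90) and did not pass (edgeR adjusted p = 0.0636, 0.0823 and 0.138). Without siCTU2 replicate 3 FLG passed (4.54, edgeR adjusted p = 0.0332), and without siGL2 replicate 3 so did DKK1 (3.19, edgeR adjusted p = 0.0497).

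**Figure D2:**
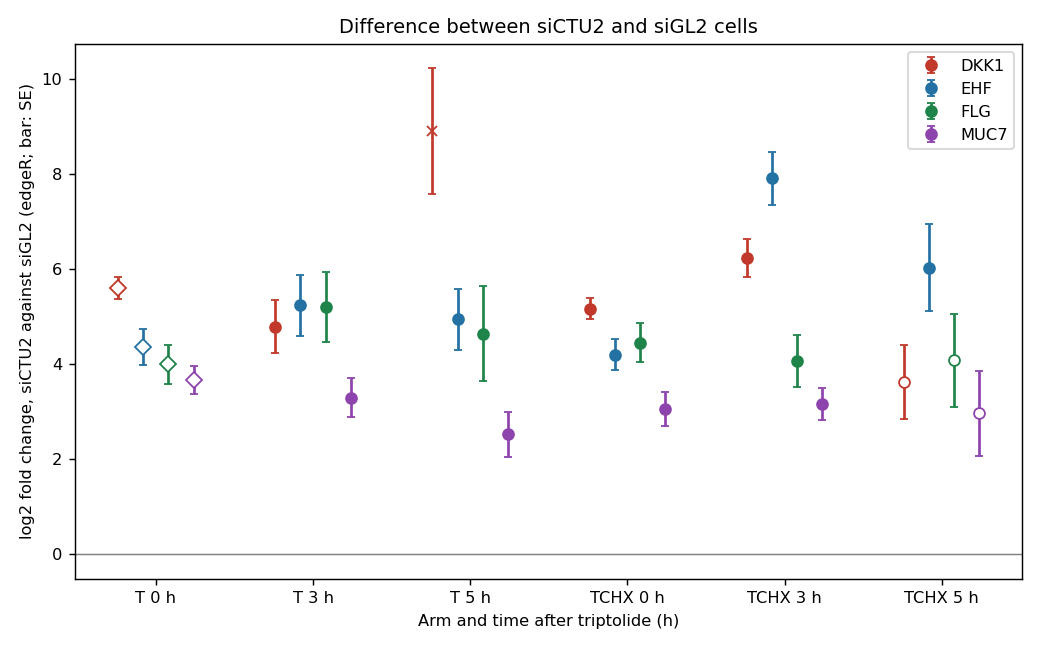
edgeR log2 fold change of siCTU2 against siGL2 cells with its SE, by arm and hours after triptolide. Diamonds mark the contrast that gave the order of the genes, filled circles an adjusted p under 0.05, open circles values that did not pass, and the cross DKK1 at T 5 h, where all siGL2 libraries were at 0. All 24 values lie above 0, and MUC7 has the lowest value in each of the 6 comparisons.

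Glutamine was next considered, since mQ and pQ libraries played no part in the selection. DKK1 was lower without glutamine. In the T arm at 0 h it had 1.48, 0.856 and 1.69 CPM in mQ cells and 5.15, 7.91 and 3.49 CPM in pQ cells, so the groups did not overlap (log2 fold change -1.99, SE 0.43, edgeR adjusted p = 0.00622). In the TCHX arm it had 1.39, 2.28 and 1.88 CPM against 4.97, 6.12 and 12.8 CPM (-2.08, SE 0.42, edgeR adjusted p = 0.0198). The value of 12.8 CPM came from pQ replicate 3, where more genes than usual had counts. The call in the TCHX arm was lost without mQ replicate 1, 2 or 3 (-1.92, -2.27 and -2.08, adjusted p = 0.105, 0.0663 and 0.114). Of the genes tested, which did not include EHF in the T arm, DKK1 was the one called in both comparisons, in which 24.8% of 12374 and 6.47% of 12521 genes were called in either direction.

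FLG had higher means without glutamine, but the difference at 0 h did not pass the threshold. In the T arm at 0 h it had 1.98, 6.28 and 2.92 CPM in mQ cells and 3.01, 1.95 and 0.487 CPM in pQ cells, which overlapped (1.14, SE 0.59, edgeR adjusted p = 0.179). In the TCHX arm the values were 3.02, 6.05 and 4.02 CPM against 1.83, 3.01 and 3.42 CPM (0.67, SE 0.39, edgeR adjusted p = 0.326), which also overlapped. After the transcription block FLG did not overlap between mQ and pQ cells. In the T arm it spanned 2.38 to 7.62 against 0.799 to 2.05 CPM at 3 h, and 2.88 to 3.95 against 0.596 to 1.60 at 5 h. In the TCHX arm it spanned 3.24 to 6.82 against 0.737 to 1.32 CPM at 3 h, and 2.63 to 6.04 against 0.0792 to 2.56 at 5 h. These later differences were not tested, and the share of all genes that separate so was not counted. At 0 h MUC7 overlapped between mQ and pQ cells in both arms, with differences of 0.17 (SE 0.45) and -0.23 (SE 0.38). EHF at 0 h had too few counts to be tested in the T arm, with 4 to 8 in each library, and differed by -0.16 (SE 0.70, edgeR adjusted p = 0.923) in the TCHX arm.

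**Figure D3:**
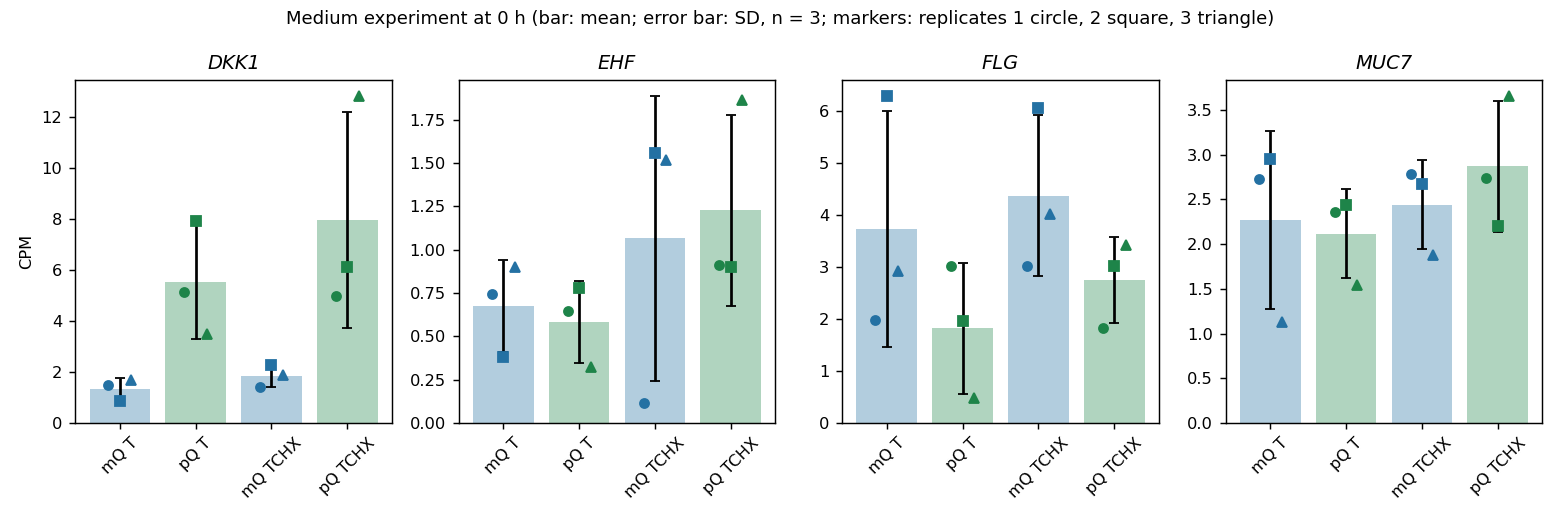
CPM of each gene at 0 h in mQ (blue) and pQ (green) cells of both arms, with bars at the mean of 3 libraries, error bars of 1 SD and a marker per library, each panel on its own axis from 0. DKK1 is lower in mQ than in pQ cells in both arms, while the other genes overlap in both arms.

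The loss of the mRNAs after the transcription block was followed in siCTU2 cells, where all 4 genes had enough counts. Values are normalised counts scaled to 198 stable genes, and the median gene changed by -0.55 at 3 h and -0.88 at 5 h (log2) in the T arm on this scale. DKK1 went from 853, 1006 and 649 normalised counts at 0 h to 99.6, 163 and 91.0 at 3 h and 58.5, 96.1 and 11.7 at 5 h, so that 14.1% and 6.63% of the mean was left. Its changes were -2.83 (SE 0.50, edgeR adjusted p = 0.000459) and -3.89 (SE 0.53, edgeR adjusted p = 1.07e-05). The groups at 3 and 5 h lay below those at 0 h without overlap, and the call at 3 h was lost without replicate 1 (-2.71, edgeR adjusted p = 0.0556). Of 13638 genes, 36% were called lower at 3 h and 63.4% at 5 h.

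EHF went from 183, 175 and 101 normalised counts to 111, 102 and 53.5 at 3 h (-0.79, SE 0.41, edgeR adjusted p = 0.133) and 87.3, 57.4 and 29.7 at 5 h (-1.39, SE 0.42, edgeR adjusted p = 0.00876). Without replicate 2 the 5 h call of EHF was lost (-1.27, adjusted p = 0.105). FLG kept 59.8% and 48.7% of its 0 h mean, with changes of -0.75 (SE 0.66) and -1.02 (SE 0.66) that did not pass (edgeR adjusted p = 0.349 and 0.177). Its replicate 2 was the highest at each time, and without it both changes passed (-1.30 and -1.26, edgeR adjusted p = 0.0323 and 0.0161). With the replicate number as a block, which the pairing check allows at 3 h, EHF (-0.80, edgeR adjusted p = 0.0255) and FLG (-0.96, edgeR adjusted p = 0.0166) were both called lower at that time. MUC7 kept 87.1% and 70.4%, with changes of -0.20 (SE 0.49) and -0.50 (SE 0.49) and edgeR adjusted p-values of 0.741 and 0.369. The order of what was left at 5 h was therefore DKK1, EHF, FLG and MUC7, with the libraries of the last 3 overlapping.

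With cycloheximide, DKK1 went from 623, 937 and 571 normalised counts at 0 h to 311, 432 and 169 at 3 h, 42.8% of the mean (-1.22, SE 0.47, edgeR adjusted p = 0.134). At 5 h it had 60.9, 58.4 and 137, 12.04% of the mean (-3.05, SE 0.51, edgeR adjusted p = 0.0011). The highest of these, 137, came from the library whose CTU2 level went against its label, so it raises the mean that was left. The call at 5 h was lost without replicate 1 or 2 (adjusted p = 0.0955 and 0.0668). EHF kept 65.8% and 44.6% (-0.60 and -1.17, edgeR adjusted p = 0.358 and 0.0499). Its call at 5 h was lost without replicate 1 or 2 (adjusted p = 0.152 and 0.301), and also without only the TCHX 5 h library that went against its label (-0.80, adjusted p = 0.134). FLG kept 79.5% and 64.8%, and MUC7 88.2% and 82.3%, without passing. None of the 4 genes was called lower at 3 h, where 3.04% of genes were, and DKK1 and EHF were at 5 h, where 22.6% were.

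**Figure D4:**
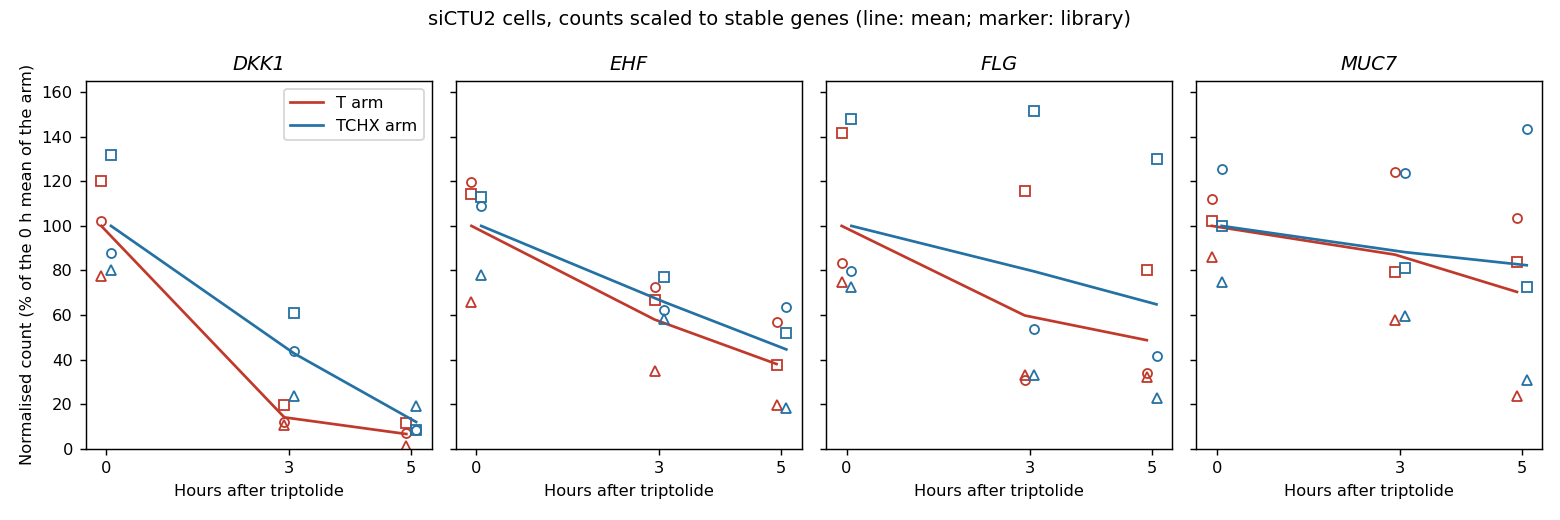
Normalised counts in siCTU2 cells as a percentage of the 0 h mean of the same arm, against hours after triptolide, with lines through the means of 3 libraries and a marker per library (circle, square and triangle for replicates 1 to 3). DKK1 drops to 14.1% at 3 h in the T arm and 42.8% in the TCHX arm, whereas MUC7 keeps 70.4% or more on average.

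DKK1 also fell where it was expressed at lower levels. In pQ cells it went from 48, 81 and 43 counts at 0 h to 12, 10 and 3 at 3 h and 0, 6 and 0 at 5 h in the T arm, with changes of -3.18 (SE 0.67, edgeR adjusted p = 0.00112) and -5.16 (SE 0.80, edgeR adjusted p = 4.91e-05). In the TCHX arm of pQ cells the changes were -2.50 (SE 0.61, edgeR adjusted p = 0.00659) and -3.90 (SE 0.68, edgeR adjusted p = 0.000552). The call at 3 h in the TCHX arm was lost without replicate 1 or 2 (adjusted p = 0.0899 and 0.0913). The T arm value at 5 h rose in size to -8.88 without replicate 2, which held the 6 counts. Of DKK1, FLG and MUC7, only DKK1 was called lower in pQ cells, where EHF had too few counts to be tested. Called lower in pQ cells were 55.2% and 51.8% of 13347 genes at 3 and 5 h in the T arm and 40.5% and 33.4% in the TCHX arm. With the paired replicates as a block, FLG and MUC7 were also called lower in the TCHX arm of pQ cells at 3 h (-1.99 and -1.13, edgeR adjusted p = 0.0385 and 0.0387) and at 5 h (-1.96 and -1.08, edgeR adjusted p = 0.0444 and 0.0498).

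In siGL2 cells DKK1 had 11, 14 and 8 counts at 0 h, 1, 10 and 0 at 3 h (-1.97, SE 1.00, edgeR adjusted p = 0.151) and none at 5 h in the T arm (edgeR adjusted p = 0.00254, or 0.0502 without replicate 1). Called lower there were 28.6% of 13161 genes at 3 h and 47.4% at 5 h. EHF and FLG had too few counts in siGL2 cells for this test. In mQ cells the 5 h libraries of the T arm held 3, 0 and 190 DKK1 counts, the last of them in a library with extra genes. With cycloheximide MUC7 was the gene called lower, with 24, 41 and 21 counts at 0 h, 22, 17 and 18 at 3 h and 10, 21 and 7 at 5 h. The changes were -1.19 (SE 0.43, edgeR adjusted p = 0.0405) and -1.57 (SE 0.45, edgeR adjusted p = 0.00935), where 36.1% and 53.7% of 13442 genes were called lower. The first call was lost without replicate 1, 2 or 3 (adjusted p = 0.171, 0.245 and 0.0579) and the second without replicate 1 or 2 (adjusted p = 0.102 and 0.087).

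The effect of blocking translation was measured as the TCHX arm minus the T arm, averaged over 3 and 5 h. In siCTU2 cells DKK1 was higher with cycloheximide by 0.99 (SE 0.35) and did not pass the threshold (edgeR adjusted p = 0.0544, unadjusted p = 0.0117), though DESeq2 called it (adjusted p = 0.0241). With the edgeR test and without replicate 2 it passed as well (1.42, edgeR adjusted p = 0.0388). With the replicate block, which the pairing check allows at 3 h but not at 5 h, it also passed (1.09, edgeR adjusted p = 0.0244). Without replicate 3 the value was 0.56 (edgeR adjusted p = 0.0831), and without the library that went against its label 0.73 (edgeR adjusted p = 0.198). At 3 h its libraries did not overlap between the arms (17.9 to 41.0 against 9.71 to 15.95 CPM), and at 5 h they did. EHF, FLG and MUC7 differed by 0.18 (SE 0.29), 0.45 (SE 0.46) and -0.07 (SE 0.35). Of all genes in the siCTU2 fit 21.0% were called higher, and the shares were 12.1% for siGL2, 5.12% for mQ and 12.3% for pQ. In the last 3 states edgeR called 0 of the tested genes of the 4, with DKK1 at an unadjusted p of 0.0186 in siGL2 and 0.0249 in pQ cells. The DKK1 values in siGL2, mQ and pQ were 2.78 (SE 1.05, edgeR adjusted p = 0.114), -0.56 (SE 0.89, edgeR adjusted p = 0.791) and 1.39 (SE 0.57, edgeR adjusted p = 0.142).

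Whether the effect of cycloheximide or the loss in the T arm differed between states was tested as an interaction. For DKK1 the cycloheximide effect in siCTU2 minus that in siGL2 cells was -1.81 (SE 1.24, edgeR adjusted p = 0.748), and the change in the T arm differed by 1.16 (SE 1.12, edgeR adjusted p = 1). For EHF the values were 1.89 (SE 0.96, edgeR adjusted p = 0.573) and 0.66 (SE 0.81). None of the 4 genes passed in either test, where 0.379% and 0.105% of 14259 genes did, nor in the mQ minus pQ tests, where 0.0% of 14177 genes did for the cycloheximide effect (525 genes at an unadjusted p under 0.05, and 4 called by DESeq2) and 0.0% for the T arm (878 and 10). EHF and FLG had too few counts in siGL2 cells for the tests within that state, and DKK1 had none there at T 5 h. The siCTU2 minus siGL2 tests could therefore decide little for these genes. The translation-dependent decay (TDD) index subtracts the normalised count without cycloheximide from that with it and divides by the count at 0 h. Between siCTU2 and siGL2 cells it differed by -0.0243 (SE 0.162) for DKK1 and 0.230 (SE 0.349) for MUC7 (linear model with condition, time and replicate), and EHF and FLG were under the minimum of 10 normalised counts in siGL2 cells. At an unadjusted p of at most 0.05, neither was called, where 8.15% of 12263 genes were. Between mQ and pQ cells all 4 genes were tested and none was called, where 4.78% of 12395 genes were.

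The genome around the 4 genes was inspected next. DKK1 lies at chr10:52314281-52318042 (plus strand, GRCh38), EHF at chr11:34621093-34663288 (plus), FLG at chr1:152302165-152325239 (minus) and MUC7 at chr4:70430492-70482997 (plus). LNCAROD, a long non-coding RNA named as an activating regulator of DKK1, lies 132832 bases from DKK1. It had 3.90, 3.69 and 2.10 CPM in siCTU2 cells of the T arm at 0 h and 3.49, 4.45 and 2.23 CPM in the TCHX arm, and no count in any of the 18 siGL2 libraries. In the TCHX arm it was at least 12.5-fold higher in siCTU2 cells, computed against 3 counts per library (edgeR adjusted p = 3.91e-06). In the mQ and pQ libraries it had at most 2 counts, except for 13 in pQ TCHX 0 h replicate 3. PRKG1, which lies nearer to DKK1 (15858 bases), had a mean of 1.54 CPM in siCTU2 and 1.59 CPM in siGL2 libraries at T 0 h. PRKG1-AS1, which overlaps DKK1, had 53 counts over all 72 libraries.

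FLG overlaps FLG-AS1, a long non-coding RNA on the other strand, and without the strand setting of the counting, which is not given in the sources used here, reads of the overlap cannot be told apart. At TCHX 0 h the siRNA difference of FLG-AS1 was -0.57 (SE 0.31, edgeR adjusted p = 0.168), against 4.45 for FLG. Of 35 annotated genes within 500 kb of FLG, 6 were tested in this comparison. S100A10 and S100A11 of the epidermal differentiation complex were higher by 0.24 and 0.20 (595 against 507 and 360 against 316 CPM), THEM4 was lower (-0.95), and C2CD4D (0.24, edgeR adjusted p = 0.664) and C2CD4D-AS1 (0.42, edgeR adjusted p = 0.579) did not pass. The nearer genes HRNR, RPTN and CRNN had no count in any library, FLG2 had 34 and TCHH 445 over all 72.

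Of 9 genes within 500 kb of EHF, 6 were tested, of which CD44 (0.55), CAT (0.45) and PDHX (0.28) were higher and ABTB2 (-0.55) was lower. NAT10 (0.08) and APIP (-0.44) did not pass (edgeR adjusted p = 0.592 and 0.165), and ELF5, an epithelial ETS gene, had no count. Of 22 genes around MUC7, 4 were tested. GRSF1 (-1.07) and RUFY3 (-0.71) were lower, UTP3 (0.02) and MOB1B (-0.41) did not pass (edgeR adjusted p = 0.893 and 0.202), and the secretory genes CSN3 and STATH had 3 and 0 counts. All these values were smaller in size than those of EHF (4.20), FLG (4.45) and MUC7 (3.06), which were selected for their strong rises.

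Other genes of the same families were counted in the TCHX arm at 0 h, in lists chosen with earlier results of these data known. Of 10 tested epithelial and keratinocyte transcription factors (20 listed), 6 were higher and 0 lower, with a median of 0.68 against -0.01 over all genes. They were PRDM1 (2.22), KLF4 (1.55), KLF5 (0.94), TFAP2C (0.93), TFAP2A (0.72) and MAF (0.57), of which PRDM1 and KLF4 act in terminal differentiation of epidermis. Over all genes 18.3% were called higher and 18.9% lower. Of 16 tested ETS factors, the family of EHF, 4 were higher and 5 lower (median 0.05). ELK3 (-2.58), ETV5 (-1.81) and ELK4 (-0.82) fell, and ETS2 (1.24) rose.

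Of 10 tested genes of the epidermal differentiation complex (35 listed), S100A16 (0.93), S100A10 (0.24) and S100A11 (0.20) were higher and S100A13 (-0.33) was lower, with a median of -0.05. These 4 encode S100 proteins, a family of small signalling proteins. In the T arm at 0 h, 3 of the 10 tested genes of this complex were higher and 3 lower (median -0.16). Of 4 tested enzymes of filaggrin processing and the cornified envelope, the protease FURIN rose (0.66) and BLMH, which degrades filaggrin peptides, fell (-0.34), with a median of -0.13. Of 8 tested keratins, junction and adhesion genes, KRT18 was higher (0.22), and ESRP1 (-1.35) and DSG2 (-0.29) were lower (median 0.14). Of 18 other mucins 2 were tested, MUC5B (-0.72, edgeR adjusted p = 0.0523) and MUC1 (-0.16, edgeR adjusted p = 0.843), and neither passed (median -0.44). In the T arm at 0 h MUC5B was the 1 mucin of the list tested, and it was called lower (-1.08).

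Around DKK1, 5 of 18 Wnt antagonists and DKK receptors were tested (median -0.21). The DKK receptor CKAP4 fell (-2.81), the co-receptor KREMEN1 rose (0.88) and the Wnt antagonist SFRP1 rose (0.68). LRP5, a co-receptor that DKK1 binds, had a value of -0.21 (edgeR adjusted p = 0.467). Of 10 tested targets and feedback genes of beta-catenin, 3 were higher (RNF43 2.46, CCND1 1.20 and CD44 0.55) and 3 lower (MYC -1.58, TNFRSF19 -1.23 and ZNRF3 -0.66), with a median of -0.26. Of 7 tested melanoma markers MITF (-1.43) and S100B (-0.32) fell and NGFR (1.53), DCT (1.097) and AXL (1.07) rose in the same comparison.

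**Figure D5:**
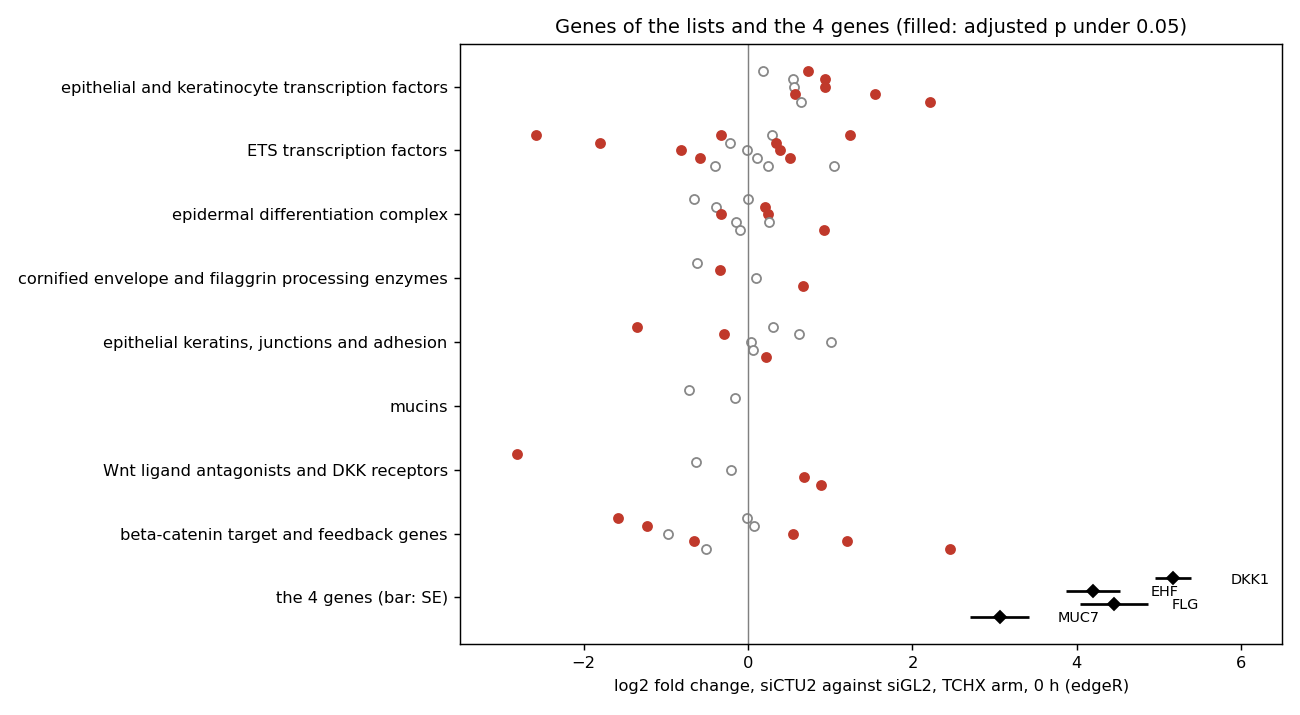
edgeR log2 fold change of siCTU2 against siGL2 cells (TCHX arm, 0 h) for each tested gene of 8 lists, filled where the adjusted p is under 0.05, and for the 4 genes with the SE (diamonds). Values of the listed genes lie between -2.81 and 2.46, below the lowest of the 4 genes (MUC7, 3.06). The 4 genes were selected as the strongest rises in siCTU2 cells, so their place above the lists is no separate result.

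Genes whose 24 group means of log2(CPM + 1) were most like each gene were taken from 10936 genes by Pearson's r, as a description over groups that share libraries and states. They were MGC16025, RUNX1T1 and MARCKS for DKK1 (r = 0.917, 0.916 and 0.916), NRG1, MGC16025 and OSBPL3 for EHF (0.977, 0.974 and 0.973), MOK, SRA1 and IL24 for FLG (0.965, 0.964 and 0.953), and ATL3, EHF and TM4SF18 for MUC7 (0.971, 0.966 and 0.966). Among the 4 genes, EHF and MUC7 were most alike (0.966) and DKK1 and FLG least (0.755).

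The coding sequences were compared with 19005 genes, because the tRNAs that CTU2 acts on read the codons AAA, GAA and CAA. These codons made up 7.52% of DKK1, 7.0% of EHF, 6.57% of FLG and 6.63% of MUC7, beside a median of 5.66%, which placed the genes at the 63.4th, 59.7th, 56.7th and 57.1st percentile. As a share of the codons for the same amino acid, AAA made up 61.5% of the lysine codons of DKK1 (84.7th percentile), 45% in EHF (57.9th), 63.2% in FLG (87.0th) and 71.4% in MUC7 (95.5th). CAA made up 50% of the glutamine codons of DKK1 (89.0th), 18.8% in EHF (41.1st), 29.2% in FLG (60.0th) and 69.2% in MUC7 (98.1th). GAA lay between the 56.6th and 75.0th percentile of the glutamate codons in all 4 genes. The encoded proteins differed in composition. FLG held 24.1% serine and 10.2% histidine, MUC7 20.2% proline and 16.4% threonine, and DKK1 7.52% cysteine, against medians of 7.64%, 2.43%, 5.51%, 5.06% and 2.02%. ATTTA, the core of AU-rich elements, occurred 3 times in the 3′ untranslated region of DKK1, 6 times in that of EHF, 0 times in that of FLG and 7 times in that of MUC7. The median over all genes was 2. These regions were 850, 4357, 535 and 1119 bases long in the same order, beside a median of 1059.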

How the data were processed

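QuantSeq libraries of cytoplasmic RNA were analysed from the raw read counts per gene that the authors deposited. The study's methods state that forward reads were trimmed by the authors with fastp 0.20.1, mapped them to GRCh38.p13 with HISAT2 2.2.1, and counted reads on exons with htseq-count (HTSeq 0.13.5). The strand setting and any molecular identifiers are not given in the sources used here, so counts may hold PCR copies and error from counts covers counting only. All 72 sample columns matched a title (0 not used). Groups and replicate numbers came from titles. Nothing in the labels used here says that replicates came from separate cultures, so p-values measure the spread between these libraries.

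Levels are CPM of library totals. Level contrasts were tested with edgeR 4.0.16 in R 4.3.3 (filterByExpr, TMM, quasi-likelihood F-test, 6 libraries per fit), changes over time and cycloheximide effects with the same test on the 18 libraries of a state, and interactions on 36, with Benjamini-Hochberg adjustment over all genes and a threshold of 0.05. For these, size factors came from stable genes after the study's methods (198 for siRNAs, 82 for medium): in every replicate of both states and arms, a 0 h CPM above 0.2, a CPM at 3 or 5 h at least 1.1 times as high, and a 0 h CPM above 0.1 times the later one. The TDD index was fitted with condition, time and replicate, at a mean of at least 10 normalised counts and an unadjusted p of at most 0.05. DESeq2 1.42.0 was an alternative. The scripts were tested on simulated data.

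Same-numbered libraries were checked for shared deviations from their group means (genes of at least 10 CPM). Every r was over 0.1 in 17 of 32 comparisons (range -0.371 to 0.903). Among them were the siRNA contrasts at T 0 h, T 5 h, TCHX 0 h and TCHX 3 h. The T 3 h change in siCTU2 cells and the TCHX changes in pQ cells were also among them. Unless the block is named, the edgeR p-values come from fits without the replicate number, also in these comparisons.

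The 4 genes, the gene lists and the tests were chosen with earlier results of these data known. Named genes are the 4 genes, CTU2, the next genes in the order of rises (same direction in 3 pairs, mean of at least 50 counts), up to 6 called genes per list, 3 most alike per gene (at least 5 CPM in a group), and tested or overlapping genes within 500 kb; untested neighbours, uncalled list genes and markers were named after their values were seen.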

Additional observations from a re-analysis of the deposited data

How the results depend on the processing

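Of the counts of the 4 genes called, those for siCTU2 against siGL2 at T 3 h, TCHX 0 h and TCHX 3 h were 4 under every alternative run. At T 0 h, whose fold changes gave the order of the genes, the count of 4 was set by the selection and is not read. The other contrasts compare the same states and are no independent evidence of the rise. Leaving out 1 replicate gave 1 to 4 at T 5 h and 0 to 2 at TCHX 5 h, where the count of 1 was 4 with DESeq2 and 4 without the filter on low counts. For mQ against pQ, tests against a 1.5-fold change gave 0 in both arms, no filter gave 2 in the T arm, and leaving out 1 replicate gave 0 to 1 in the TCHX arm.

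Changes over time depended on the scale. In siCTU2 cells the T arm count at 3 h (1) was 3 with the replicate block, 2 with genes stable at both times and 0 to 2 without 1 replicate, and at 5 h (2) it was 1 with TMM and 3, with FLG, with no filter, the replicate block or genes stable at both times. In the TCHX arm at 3 h (0) it was 1 with no filter, 2 with genes stable at both times and 0 to 1 without 1 replicate, and at 5 h (2) it was 1 with TMM, 1 without the library labelled siCTU2 TCHX 5 h replicate 3 and 0 to 2 without 1 replicate. In pQ cells the TCHX count at 3 h (1) was 2 with DESeq2, 2 with no filter, 3 with the replicate block, 0 with TMM, 3 with genes stable at both times and 0 to 2 without 1 replicate, and at 5 h (1) it was 2 with DESeq2, 3 with the block and 3 with genes stable at both times. In siGL2 cells the T arm count was 1 at 3 h (0) with genes stable at both times, and at 5 h (1) 0 to 1 without 1 replicate. In mQ cells the TCHX count at 3 h (1) was 0 with no filter, 0 with TMM and 0 without each replicate, and at 5 h (1) it was 0 with TMM, 2 without mQ T 5 h replicate 3 (an alternative chosen after seeing the data) and 0 to 2 without 1 replicate.

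The cycloheximide count in siCTU2 cells (0) was 1 with DESeq2, no filter or the replicate block (DKK1, 1.09, adjusted p = 0.0244), and 0 to 1 without 1 replicate. It was 1 with no filter in pQ cells, as was that of the T arm change in mQ minus pQ. The TDD count in mQ minus pQ (0) was 1 with a replicate block on the averaged times (MUC7). The block changed FLG at T 5 h (-1.13, adjusted p = 0.00345) and TCHX 5 h (-0.87, adjusted p = 0.0352) in siCTU2 cells as well, where the pairing check did not pass, and beside the changes named here and in the results the block moved no other call of the 4 genes. The cause of these shifts was not tested. Levels under about 1 CPM rest on fewer than 20 counts and limit the siGL2 values of all 4 genes.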
